A study of Mus musculus with 3 samples.

Results

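Artery-side general capillary cells of the mouse lung were taken from 3 single-cell RNA-seq libraries of sorted lung endothelial cells by an RNA count rule. A barcode was kept with 1000 to 5000 detected genes, less than 20% mitochondrial UMIs (unique molecular identifiers, each standing for 1 captured RNA), at least 2 UMIs of the endothelial genes Pecam1 and Cdh5 together, and at least 3 UMIs of the general capillary genes Gpihbp1, Kit, Plvap and Aplnr together. It had fewer than 3 UMIs of the aerocyte genes Ednrb, Fibin, Tbx2, Chst1 and Apln, fewer than 3 of the artery genes Bmx, Gja5, Stk32a and Dkk2, and none of Esm1. Among the 22071 barcodes inside these limits, the artery-side cells had at least 3 UMIs of Ntrk2, Adam23 and Mal together and none of the venous-side genes Vegfc, Chrm2 and Chrm3. They numbered 490, of 31947 barcodes that passed the limits on detected genes and mitochondrial share. The 8630 general capillary cells inside the same limits with 0 UMIs of Ntrk2, Adam23 and Mal are called reference cells here. All of these sets were chosen on measured UMIs, so every contrast of artery-side with reference cells is a description of the sets.

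The libraries came from wild-type C57BL/6 mice, adult males by the study's methods. The control group received buffer (PBS) by tail vein 6 h before lung collection, and the other groups received B16-F10 cells, a mouse melanoma line, 6 h or 30 h before collection. Each group was 1 library of cells pooled from several mice, so no difference between groups has a replicate check, and the control of the 30 h library is the 6 h buffer library. Cells were sorted on surface Pecam1 without Ptprc after enzymatic digestion of the lungs, and by the labels the 6 h library also held melanoma cells, which the labels of the 30 h library do not name. The control library gave 132 artery-side and 2887 reference cells, the 6 h library 135 and 3692, and the 30 h library 223 and 2051. Intervals below are 95% intervals of counting error only, and the cells of 1 library share their mice and their library.

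General capillary cells are the main capillary endothelium of the alveolus, where they take up lipoprotein lipase through Gpihbp1, answer to apelin and serve as a progenitor pool, while the larger aerocytes lie against the gas-exchange surface. Endothelial cells form a continuum from artery through capillary to vein. Arterial character rests on Notch, Sox17 and the chemokine Cxcl12, and venous character on the nuclear receptor Nr2f2. Ntrk2 encodes TrkB, the receptor for brain-derived neurotrophic factor, Adam23 a catalytically inactive adhesion protein that binds LGI ligands, Mal a proteolipid of membrane rafts, Slc6a6 the taurine transporter and Epha4 a receptor for ephrins of both classes.

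The libraries held 140601123 UMIs in the control, 132566934 at 6 h and 124085451 at 30 h over all barcodes. The artery-side cells were deeper than the reference cells, with a median of 8444 against 5915 UMIs in the control, 8428 against 6916 at 6 h and 8997 against 6641 at 30 h. Mitochondrial UMIs made up 2.57%, 2.55% and 2.93% of all UMIs of the artery-side cells. No artery-side barcode sequence occurred in the artery-side sets of 2 libraries. Scrublet, a doublet caller, marked 3.79%, 5.93% and 6.28% of them in the control, 6 h and 30 h libraries, against 6.24%, 7.58% and 5.51% of reference cells.

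Some artery-side barcodes carried RNA of other cells. Barcodes with at least 10 UMIs of the epithelial, leukocyte or platelet list, of the lymphatic list with Lyve1 left out, or of the pericyte, fibroblast and smooth muscle lists together, or with at least 30 erythroid UMIs, made up 29 of 132 artery-side barcodes in the control, 11 of 135 at 6 h (8.15%) and 37 of 223 at 30 h (16.6%), against 21.4%, 13.3% and 15.8% of reference cells. The erythroid list summed to 8115, 10720 and 137 CPM (UMI counts scaled to a sum of 1000000) in control, 6 h and 30 h cells, with 6897 and 12089 UMIs in single barcodes of the first 2 libraries. The epithelial list summed to 6569, 5909 and 445 CPM. Alveolar type 2 RNA of at least 10 UMIs was present in 2 control cells and 1 cell at 6 h, and in 0 cells at 30 h. These cells had 0 UMIs of Ntrk2 and Adam23 and met the rule through Mal. Without the barcodes carrying other-cell RNA the epithelial list stood at 525, 419 and 384 CPM and the erythroid list at 922, 622 and 140 CPM, so the erythroid level still differed between libraries. The melanoma list stood at 25.2, 26.7 and 18.1 CPM. The lymphatic list stood at 373, 245 and 235 CPM against 1655, 1723 and 1482 CPM in reference cells. Lyve1, which capillary cells of the lung also express, made up much of each sum. Prox1 and Nts were at 0 in every artery-side cell. Reln of the same list was found in control artery-side cells, and Pdpn in those at 6 h and 30 h. Counts are given below with and without barcodes carrying other-cell RNA where these change them.

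The sequences just upstream of Ntrk2, Epha4 and Cxcl12 are shown because the first defined the cells and the others are a receptor and a ligand that were higher in them. Each line gives the 250 bases before the annotated start, from RefSeq on GRCm38.p6, 5′ to 3′ on the strand of the gene, with matches to the cores ACAAT (SOX), TGGGAA (RBPJ, the Notch effector) and CACCC (KLF) on either strand in capitals. The upstream window of Ntrk2 on chr13:58806319-58806568 (plus strand), of Epha4 on chr1:77515089-77515338 (minus strand) and of Cxcl12 on chr6:117168285-117168534 (plus strand) read as follows.
Ntrk2: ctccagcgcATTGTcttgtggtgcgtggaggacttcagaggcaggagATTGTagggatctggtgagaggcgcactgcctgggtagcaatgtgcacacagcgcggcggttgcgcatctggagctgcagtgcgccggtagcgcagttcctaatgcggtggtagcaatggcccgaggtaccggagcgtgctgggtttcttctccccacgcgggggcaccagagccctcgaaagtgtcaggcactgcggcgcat
Epha4: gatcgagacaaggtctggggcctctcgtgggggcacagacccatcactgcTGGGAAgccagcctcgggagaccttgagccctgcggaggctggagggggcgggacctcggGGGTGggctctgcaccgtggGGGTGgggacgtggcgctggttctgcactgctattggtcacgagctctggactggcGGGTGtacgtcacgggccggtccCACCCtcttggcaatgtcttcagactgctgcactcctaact
Cxcl12: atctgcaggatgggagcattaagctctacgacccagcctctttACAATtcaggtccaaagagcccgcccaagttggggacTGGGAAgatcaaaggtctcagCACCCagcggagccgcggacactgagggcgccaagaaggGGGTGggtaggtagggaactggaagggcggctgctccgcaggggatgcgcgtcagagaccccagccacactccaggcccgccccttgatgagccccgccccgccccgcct

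The Ntrk2 window held 2 SOX matches and no RBPJ or KLF match, the Epha4 window 1 RBPJ and 4 KLF matches, and the Cxcl12 window 1 SOX, 1 RBPJ and 2 KLF matches. Of the 26 genes that were members of the marker set or called higher in artery-side cells, 20 had a RefSeq window, 27 windows in all. The SOX core was present in 9 of these (33.3%) against 27.7% of all 32851 windows, the RBPJ core in 9 (33.3%) against 21.6%, and the KLF core in 17 (63.0%) against 52%. Windows of 1 gene can overlap and share a match, as windows of Mest did. These cores are short and common, and a match is only a match of letters.

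On the files' build (GRCm38), Ntrk2 lies on chromosome 13 from 58806569 to 59133970, Adam23 on chromosome 1 from 63445891 to 63596276, and Mal on chromosome 2 from 127633226 to 127656695. Slc6a6 lies on chromosome 6 from 91684053 to 91759066 and Epha4 on chromosome 1 from 77367185 to 77515088. Most artery-side cells were chosen through Ntrk2 and Adam23. Ntrk2 was detected in 95 artery-side cells of the control (72.0%), 103 from 6 h (76.3%) and 196 from 30 h (87.9%). Adam23 was present in 62.9%, 60.7% and 55.6% of them, and Mal in 34, 27 and 29 cells. Ntrk2 was thus the gene of the 3 detected in most cells of every library. It was the sole one of the 3 in 33, 39 and 84 cells, Adam23 in 23, 22 and 23, and Mal in 4, 4 and 2. All 3 genes were found together in 8, 7 and 12 cells. The sum of the 3 genes had a median of 4 UMIs in each library, and 46, 55 and 99 cells lay exactly at the limit of 3 UMIs. At that limit Slc6a6 stood at 306, 279 and 309 CPM, and in the 116, 131 and 185 cells just outside it, with 2 UMIs, at 222, 206 and 289 CPM. Epha4 stood at 175, 169 and 233 CPM just inside the limit and at 165, 156 and 162 CPM just outside it. Cxcl12 stood at 791, 561 and 1861 CPM just inside the limit and at 679, 670 and 1944 CPM just outside it.

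The 3 genes that defined the cells were each raised in cells chosen on the other 2. Cells inside the same limits with at least 2 UMIs of Adam23 and Mal together held Ntrk2 at 114 CPM (control), 97.0 CPM (6 h) and 171 CPM (30 h), against 23.3, 19.1 and 49.3 CPM in cells without either gene. Cells chosen likewise on Ntrk2 and Mal held Adam23 at 61.1, 71.5 and 62.6 CPM against 13.6, 9.98 and 17.7. Cells chosen on Ntrk2 and Adam23 held Mal at 26.0, 19.1 and 22.03 CPM against 2.47, 3.03 and 1.79. The level was higher in the chosen cells for every gene and in every library. Over the artery-side cells themselves Ntrk2 summed to 248, 267 and 327 CPM, Adam23 to 217, 207 and 156 CPM, and Mal to 69.7, 73.5 and 49.1 CPM.

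Slc6a6 and Epha4, the marker genes that the rule did not read, were both higher in artery-side cells. Slc6a6 stood at 381 CPM in artery-side cells of the control, 390 CPM at 6 h and 405 CPM at 30 h against 61.8, 51.8 and 82.6 CPM in reference cells, and 68.2%, 70.4% and 77.6% of the cells had a UMI of it against 20.1%, 20.3% and 26.7%. Epha4 stood at 206, 198 and 258 CPM against 93.6, 96.5 and 94.8 CPM. The log2 ratio of Slc6a6 was 2.60, 2.89 and 2.28 and that of Epha4 1.13, 1.03 and 1.43. Cells chosen through different genes were each above the reference in Slc6a6: cells with Ntrk2 alone held Slc6a6 at 263, 431 and 365 CPM and cells with Adam23 alone at 208, 195 and 299 CPM. Cells with more than 1 of the 3 genes had Slc6a6 at 494, 430 and 456 CPM and Epha4 at 266, 226 and 290 CPM. Epha4 in control cells with Adam23 alone stood at 107 CPM (65.9 to 163), an interval that held the reference level. The transcription factor Mecom, an artery gene, stood at 33.7, 34.2 and 32.2 CPM in cells with Ntrk2 alone and at 167, 68.6 and 57.7 CPM in cells with Adam23 alone, and the intervals of these sets overlapped at 6 h and 30 h. Mecom stood at 1041 CPM over the 4 control cells with Mal alone, of which 2 carried alveolar type 2 RNA of at least 10 UMIs.

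The share of artery-side cells among general capillary cells was close in the control and 6 h libraries and higher at 30 h. They made up 1.61% (1.35% to 1.91%, exact Clopper-Pearson interval) of 8178 gated general capillary cells in the control, 1.73% (1.45% to 2.04%) of 7802 at 6 h and 3.66% (3.20% to 4.16%) of 6091 at 30 h. With cells carrying venous-side UMIs allowed, cells with at least 3 UMIs of the 3 genes made up 3.39% (3.01% to 3.80%), 3.09% (2.72% to 3.5%) and 7.08% (6.44% to 7.75%). The 30 h interval lay above the others under both definitions. Each cell was then thinned to 3000 UMIs, and shallower cells were left out. A UMI of any of the 3 genes was found in 9.12%, 8.41% and 15.0% of the 7465, 7213 and 5688 remaining general capillary cells. Ntrk2, with or without the others, was found in 5.83% (5.31% to 6.38%) in the control, 5.24% (4.74% to 5.78%) at 6 h and 11.3% (10.5% to 12.2%) at 30 h. Adam23 was found in 2.81%, 2.54% and 3.71% of thinned cells and Mal in 1.25%, 1.25% and 1.37%. Of the 3 genes, Ntrk2 had the largest difference at 30 h.

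**Figure D1:**
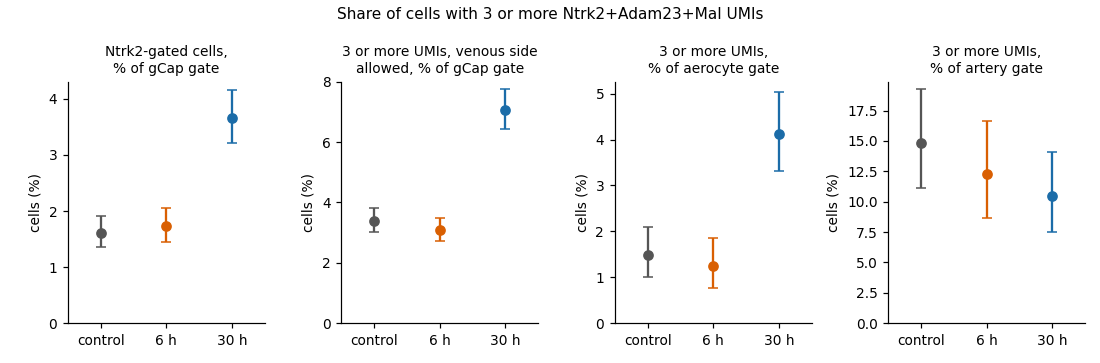
Share of cells with at least 3 UMIs of Ntrk2, Adam23 and Mal in the control, 6 h and 30 h libraries, in percent, with exact Clopper-Pearson 95% bars. The panels show artery-side cells among gated general capillary cells, the same with venous-side UMIs allowed, and the same count among aerocyte-gated and artery-gated cells. The 30 h share was the highest in the first 3 panels and the lowest in the artery gate.

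A higher share at 30 h was also seen among aerocytes, the other capillary type. At least 3 UMIs of the 3 genes were present in 1.49% (1.01% to 2.10%) of 2086 aerocyte-gated cells in the control, 1.24% (0.776% to 1.86%) of 1781 at 6 h and 4.11% (3.31% to 5.05%) of 2116 at 30 h. In barcodes without Pecam1 or Cdh5 UMIs, which should lack endothelial RNA, 2 of 123, 3 of 118 and 1 of 94 reached this limit. These shares were 1.63% (0.198% to 5.75%), 2.54% (0.527% to 7.25%) and 1.06% (0.0269% to 5.79%). Such barcodes were shallow, with median UMIs of 2761, 4062 and 3425, so their shares are not comparable at a fixed limit. In free RNA of droplets without cells, Ntrk2 stood at 13.5, 12.2 and 30.9 CPM and Slc6a6 at 51.5, 46.2 and 81.3 CPM. Adam23 stood there at 6.76, 6.75 and 9.06 and Mal at 5.63, 5.74 and 3.70 CPM. Ntrk2 over all gated general capillary cells stood at 24.7, 21.5 and 50.3 CPM. The share in general capillary cells with venous-side UMIs allowed exceeded the aerocyte share in each library. Median UMIs were 10281, 10364 and 10861 in aerocytes against 7433, 7789 and 8291 in general capillary cells. The part of depth in these shares and of free RNA in the 30 h share was not tested. Among 316, 286 and 354 artery-gated cells the share was 14.9%, 12.2% and 10.4%, so the 30 h share was not the highest in artery cells. Their Adam23 level was 107, 72.0 and 41.2 CPM.

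Over all 22071 gated general capillary cells, venous side included, the level of several genes ran with the UMIs of the 3 defining genes. From cells with 0 to cells with at least 5 such UMIs, Slc6a6 went from 53.4 to 390 CPM in the control, from 49.8 to 470 CPM at 6 h and from 82.6 to 464 CPM at 30 h. In the control it passed through 138, 208 and 305 CPM in cells with 1, with 2 and with 3 or 4 UMIs. Gja4, a gap junction gene of arterial endothelium, went from 115 to 280, from 156 to 339 and from 154 to 350 CPM. Slc6a6 and Gja4 were higher at the top of the scale in every library.

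Nr2f2 and Ptgs1, genes of the venous list, were lower at the high end of the scale than at 0 UMIs. Nr2f2 went from 82.5 to 34.9 CPM in the control, from 71.8 to 48.1 at 6 h and from 99.9 to 23.5 at 30 h. At 6 h Nr2f2 did not descend evenly, with 28.1, 29.1 and 27.9 CPM in the inner steps, below the 48.1 CPM (34.2 to 65.8) of the cells with most UMIs. The venous-side genes of the rule moved less evenly: Vegfc stood at 144 CPM at 0 UMIs and 124 CPM (105 to 145) at 5 or more in the control, at 114 and 110 CPM (88.2 to 135) at 6 h, and at 201 and 92.7 CPM at 30 h. A venous-side UMI was present in 52.4%, 44.0% and 48.3% of cells with at least 3 UMIs of the defining genes, against 57.9%, 44.2% and 53% of cells with none, and after thinning to 3000 UMIs in 29.4%, 26.9% and 27.8% against 43.8%, 29.4% and 39.5%. Ptgs1, a prostaglandin synthase, went from 222 to 48.8, from 135 to 37.0 and from 73.7 to 14.0 CPM. Lpl, lipoprotein lipase, varied little along the scale in comparison, with 810 and 663 CPM at its ends in the control, 825 and 769 at 6 h and 213 and 198 at 30 h, so its difference lay between libraries. Depth ran along the scale too, with median UMIs of 7234 at its low and 9967 at its high end in the control, 7671 and 9401 at 6 h, and 7971 and 10147 at 30 h. Its part in these levels was not tested.

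**Figure D2:**
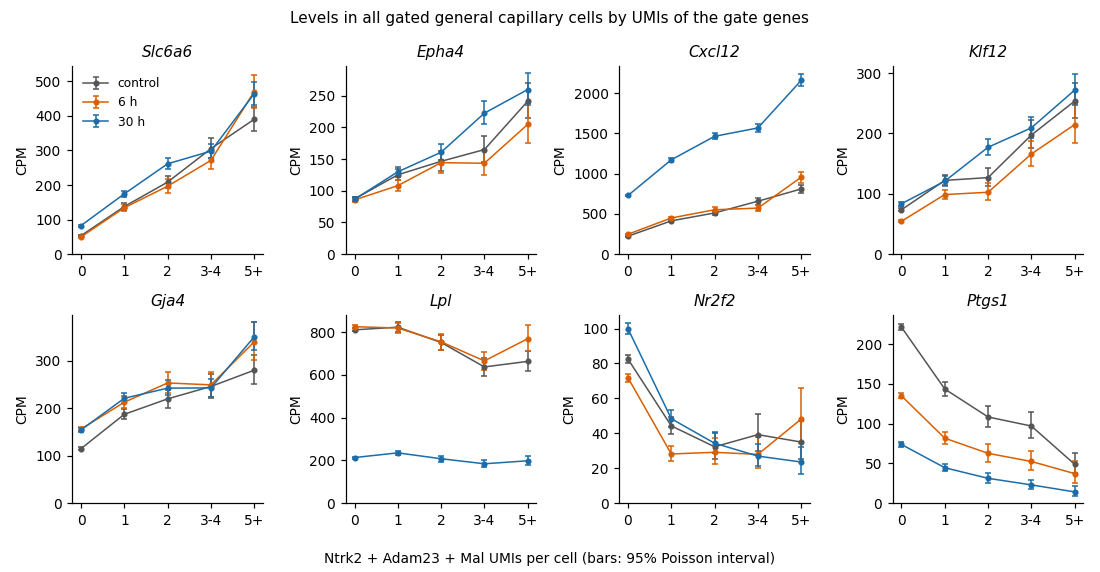
Level of 8 genes, in CPM of summed UMIs with Poisson 95% bars, in all gated general capillary cells by the number of Ntrk2, Adam23 and Mal UMIs (0, 1, 2, 3 to 4, 5 or more), for the control, 6 h and 30 h libraries. Slc6a6, Epha4, Cxcl12, Klf12 and Gja4 are higher and Nr2f2 and Ptgs1 lower at 5 or more UMIs than at 0, and Lpl is lower at 30 h across the whole scale.

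Artery-side cells differed from reference cells by few genes. Of 8697 genes outside the rule that averaged 10 CPM or more, 23 (0.264%) were higher and 17 (0.195%) lower by at least 1 on the log2 scale in each of the 3 libraries with counting intervals that left out 0. Ratios here are log2 of (CPM + 1), which understates the change of low genes. Without barcodes carrying other-cell RNA, 24 were higher and 15 lower, of which 21 and 10 were the same genes. With CPM averaged over cells, 26 were higher and 11 lower. Without the 1 barcode that held most UMIs of each gene, 17 were higher and 28 lower, 17 and 15 of them the same.

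The higher genes included regulators of transcription, a chemokine and guidance ligands. Klf12, a transcriptional repressor, stood at 250, 221 and 257 CPM in artery-side cells against 73.6, 53.1 and 82.5 CPM in reference cells. Cdk19, a kinase of the Mediator complex, stood at 539, 512 and 380 CPM against 105, 76.4 and 82.5 CPM, a mean log2 ratio of 2.42. Amd1, the decarboxylase that feeds polyamine synthesis, stood at 133, 145 and 112 CPM against 41.5, 48.2 and 33.6 CPM. Cdk19 and Amd1 lie 37377 bases apart on chromosome 10. Cxcl12, the ligand of Cxcr4, stood at 902, 823 and 2243 CPM against 309, 320 and 978 CPM, and it was found in 91.7%, 88.9% and 97.3% of artery-side cells. Its log2 ratio over the reference cells was 1.54, 1.36 and 1.20, so Cxcl12 was highest at 30 h in both sets and the gap between them was smallest there.

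Among guidance genes, Sema3c, a secreted semaphorin abundant in general capillaries, stood at 3063, 2892 and 2900 CPM against 1404, 1191 and 1373 CPM, a mean log2 ratio of 1.16. Sema5a, a transmembrane semaphorin, stood at 158, 59.3 and 96.7 CPM against 54.5, 19.5 and 12.4 CPM. Both were higher in all 3 libraries. Pde1c, a calmodulin-dependent phosphodiesterase, stood at 40.3, 48.4 and 31.4 CPM against 11.2, 7.54 and 13.9 CPM. Shtn1 (mean log2 ratio 1.88), a gene of axon outgrowth, Zfp462 (1.79), Apba1 (1.74), Tafa1 (1.56) and Mest (1.48) completed the highest of those called, with Slc6a6. Slc26a10 had the largest mean log2 ratio, 3.08, at 26.0, 21.7 and 28.6 CPM against 1.94, 2.00 and 2.39 CPM, but it overlaps B4galnt1 and its UMIs are uncertain.

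**Figure D3:**
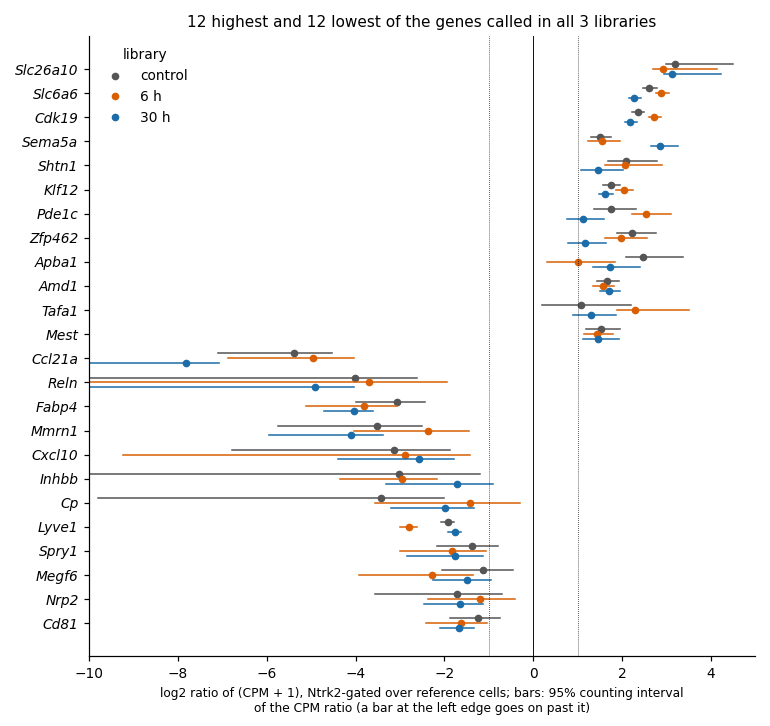
Log2 ratio of artery-side over reference cells for the 12 highest and 12 lowest of the genes called in all 3 libraries, with counting intervals, for the control, 6 h and 30 h libraries; bars at the left edge go past it. Cdk19, Klf12 and Slc6a6 lie near one another across libraries, and Ccl21a, Reln and Fabp4 are the furthest below 0.

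The lower genes fell into those that depended on barcodes carrying other-cell RNA and those that did not. Ccl21a, a lymphatic chemokine, stood at 5.04, 4.18 and 1.91 CPM against 252, 160 and 654 CPM (mean log2 ratio -6.05), but at -0.47 without those barcodes. Reln was at -4.21 with and 0.08 without them, Mmrn1 at -3.33 and 0.38, Cp at -2.29 and -0.59, and Nrp2, a semaphorin coreceptor of veins and lymphatics, at -1.52 and -0.64. These differences were near 0 or small once those barcodes were left out. Those barcodes were picked in part on lymphatic RNA, by a list that holds Reln itself. The shift of Reln was thus in part fixed by that choice. The same holds for other lymphatic genes carried by those barcodes, such as Ccl21a, so these shifts are not independent evidence. Fabp4, a fatty acid binding protein of capillary and venous endothelium, stood at 12.6, 7.52 and 13.8 CPM against 113, 119 and 241 CPM, and its log2 ratio of -3.64 was -4.05 without those barcodes. Lyve1, a hyaluronan receptor that capillary cells of the lung also express, stood at 330, 208 and 187 CPM against 1248, 1454 and 638 CPM (-2.16, and -2.32 without them). Cxcl10, an interferon-driven chemokine, was at 1.68, 0.835 and 2.86 CPM against 22.4, 12.7 and 21.8 CPM (-2.86 and -3.39). Inhbb, the activin B subunit, stood at 0, 6.68 and 3.33 CPM against 7.17, 59.0 and 13.2 CPM (-2.57 and -2.60). Spry1 (-1.66 and -1.96), an inhibitor of growth factor signalling, and the tetraspanin Cd81 (-1.51 and -2.23) also kept their direction. Megf6 (-1.63) was the remaining gene of the 12 lowest.

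The medians of the artery list were above and those of the vein list below the median of all genes. Of 27 textbook artery genes outside the rule, 24 passed the expression limit, and their median log2 ratio was 0.30, 0.27 and 0.18 (control, 6 h, 30 h), with 16, 14 and 15 of them above 0, while the median over all genes tested was -0.0072, -0.0071 and 0.015. Cxcl12 was the only one called. Sox17, an arterial transcription factor, stood at 455, 440 and 474 CPM against 243, 250 and 251 CPM, and Gja4 at 288, 281 and 309 CPM against 130, 169 and 172 CPM. Edn1, endothelin, stood at 765, 505 and 400 CPM against 375, 272 and 209 CPM. None of these passed the call in all 3 libraries, although each was higher in each of them. Other genes of the artery list were lower, such as Mgp at 28.5, 51.8 and 145 CPM against 118, 94.5 and 214 CPM. Of 17 vein genes, 10 passed, with medians of -0.92, -0.89 and -0.91, and Nrp2 was called lower, though not without barcodes carrying other-cell RNA (-0.64). Nr2f2 stood at 15.9, 16.7 and 13.3 CPM against 35.0, 33.9 and 47.1 CPM. The rule removed cells with a UMI of Vegfc, Chrm2 or Chrm3 from both sets, so these lists describe cells in which none was detected. At least 10 UMIs of the vein list were still present in 299 of 2887, 385 of 3692 and 156 of 2051 reference cells. Among artery-side cells this held for 15 of 132, 13 of 135 and 11 of 223. Reference cells were also shallower, and the part of undetected venous-side cells in the vein medians was not tested.

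The Notch list did not follow the artery list. None of its 17 genes that passed was called, and its median was -0.09, -0.24 and -0.15. Dll4, the main arterial Notch ligand, stood at 73.0, 62.6 and 125 CPM in artery-side cells against 126, 132 and 154 CPM. Hey1, a Notch target, stood at 266, 188 and 248 CPM against 361, 256 and 251 CPM. Dll4 was lower in artery-side cells in every library, and Hey1 in the control and at 6 h, with near-equal levels at 30 h. Hey2 stood at 15.1, 12.5 and 6.19 CPM against 1.59, 1.65 and 2.24 CPM, with too low a mean to be tested.

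Few genes that work with the markers were called, as few were of all genes (0.264% higher and 0.195% lower), so these counts say little. Of 25 neurotrophin pathway genes, 11 passed and none was called, with medians of -0.02, 0.07 and 0.10. Ntrk3, a related receptor, and Bdnf and Ntf5, which encode ligands of TrkB, were at 0 UMIs in all artery-side cells. Sort1, a sorting receptor of neurotrophins, stood at 17.6, 15.9 and 16.2 CPM against 19.97, 11.3 and 20.2 CPM. Of 22 Eph and ephrin genes, 6 passed and Epha4 alone was called. Efnb2, the arterial ephrin, stood at 740, 699 and 769 CPM against 593, 552 and 612 CPM, and Ephb4, its venous receptor, at 138, 148 and 156 CPM against 135, 151 and 131 CPM. Slc6a6 alone was called of the taurine list, of which 9 of 16 genes passed, and none was called of the 8 Mal family genes or the 4 genes of the ADAM and LGI list that passed.

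The general capillary list held, with a median of 0.07, 0.21 and 0.10 over 16 genes that passed and Sema3c called, and the aerocyte list was near 0 at 0.04, -0.20 and 0.06 with none called. Artery-side cells thus held the general capillary and aerocyte lists close to the level of the reference cells. The MHC class II list was above 0 in all of its 7 genes in each library, with medians of 0.87, 0.54 and 0.71 and none called. Cd74, the invariant chain, stood at 385, 509 and 189 CPM against 208, 265 and 126 CPM. Class II genes are also expressed by antigen-presenting leukocytes, and the leukocyte list summed to 453, 315 and 39.5 CPM in artery-side cells, and to 27.9, 38.7 and 28.6 CPM without barcodes carrying other-cell RNA.

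At 6 h after melanoma cells, 101 of 8731 genes (1.16%) were higher and 122 (1.4%) lower in artery-side cells than in the control library by at least 1 on the log2 scale with a counting interval that left out 0. In reference cells 93 were higher and 14 lower, and 14 and 5 of these were shared. The artery-side sums held 1191624 UMIs in the control and 1197410 at 6 h, against 17574229 and 25987710 in reference cells. Smaller sums carry more counting error, so the call counts of these sets are not comparable. With venous-side UMIs allowed, which left 277 control and 241 cells at 6 h, 31 genes were higher and 49 lower. Without the top barcode of each gene 92 were higher and 108 lower in artery-side cells, of which 75 and 79 were the same. The 8 largest falls rested on few cells. Cdh19 (-5.88), Csmd1 (-5.76), Kcna1 (-5.51), Cadm2 (-5.37), Fxyd1 (-4.51), Nkain2 (-4.01), Abca8a (-3.69) and Matn2 (-3.10) came from UMIs in 2 to 5 control cells, of which 1 cell held 48.1% to 80.8%. The nerve and glia list, which was not part of the definition of barcodes with other-cell RNA, had at least 10 UMIs in 2 artery-side barcodes of the control and in 0 at 6 h and 30 h, and summed to 59.6, 50.9 and 21.4 CPM. Without barcodes carrying other-cell RNA, 113 genes were higher and 91 lower, of which 69 and 61 were the same.

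The rises at 6 h included heat shock genes in both sets. Hspa1b, an inducible Hsp70, went from 16.8 to 91.9 CPM in artery-side cells (log2 ratio 2.39) and from 13.8 to 106 CPM in reference cells (2.85), and Hsph1 from 11.7 to 49.3 CPM (1.98). Of 16 heat shock genes, 5 rose in artery-side cells (Hspa1a, Hspa1b, Hspb1, Hsph1 and Dnaja1), against 1.16% of all genes tested. In reference cells 9 rose, against 93 of all 8671 genes tested there. The list medians were 0.89 and 1.04. Syt15 (1.86) and Taf4b (1.72) were also among the largest rises. Zbtb8os went from 7.55 to 28.4 CPM (1.78) beside 0.11 in reference cells, Nsun3 rose by 1.77 beside -0.05, and Spp1, osteopontin, went from 9.23 to 33.4 CPM (1.75) beside -0.05, but its ratio was -1.03 in cells with at least 5 UMIs of the 3 genes. Lama1 (2.53, and -1.31 in those cells) held 55.2% of its 6 h UMIs in 1 cell.

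The median responses of the immediate-early and NF-κB lists at 6 h were smaller in artery-side than in reference cells, a difference that was not tested. The venous limit did not take out the same share of cells at both times, since a venous-side UMI was found in 57.9% of control and 44.2% of 6 h cells with none of the defining genes, and Chrm2 stood at 146 and 64.7 CPM in them. The part of this shift in the medians was not tested. The median log2 ratio of 17 immediate-early genes was 0.03 in artery-side and 0.72 in reference cells. Without barcodes carrying other-cell RNA it was 0.36 and 0.74. The median of 13 genes of the NF-κB list, which holds subunits and inhibitors such as Rela and Nfkbia as well as targets, was 0.38 and 0.74. The summed lists over all gated general capillary cells showed this in part. The immediate-early sum went from 11590 CPM in the control to 15850 CPM at 6 h in cells with none of the 3 genes, from 11320 to 13000 CPM in cells with 3 or 4 UMIs, and from 9705 to 13020 CPM in cells with at least 5. The NF-κB sum went from 1357 to 1771 CPM, from 1207 to 1235 CPM and from 996 to 1367 CPM in the same cells. The smaller step was thus seen in cells with 3 or 4 UMIs and not in those with at least 5. Atf3, a stress-induced transcription factor, stood at 219 CPM in the control and 357 CPM at 6 h in artery-side cells, and at 159 and 626 CPM in reference cells. Its log2 ratio was 0.70 and 1.97, a difference of -1.27 (-1.498 to -1.04). Over all gated cells, venous side included, Atf3 went from 193 to 364 CPM in cells with at least 5 UMIs and from 201 to 626 CPM in cells with none. The 6 h level of Atf3 was thus lower in both views, while the higher control level was not seen in cells with at least 5 UMIs. Egr1 went from 547 to 704 CPM beside 485 to 1050 CPM (difference -0.75, -0.90 to -0.60), and over all gated cells it went from 652 to 759 CPM with 3 or 4 UMIs, from 505 to 749 CPM with at least 5, and from 609 to 1102 CPM with none. Egr3, from 15.9 to 40.1 CPM, was the immediate-early gene called, against 1.16% of all genes called higher. The metallothionein Mt1 was at 20.1 and 18.4 CPM beside 17.1 and 70.0 CPM (difference -2.10, -2.94 to -1.26). Icam1, a leukocyte adhesion receptor, went from 89.8 to 117 CPM beside 174 to 311 CPM.

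The panel of reactive capillary genes was chosen by the study on these samples and is not independent evidence of its own direction. It held 1 called gene in artery-side cells among the 6 that passed, against 1.16% of all genes called higher. Pim3, a serine/threonine kinase, rose from 59.6 to 123 CPM in artery-side cells (1.03, 0.62 to 1.47), beside 87.9 to 150 CPM in reference cells (0.76). The median of the 6 panel genes that passed was 0.60 and 0.94. Bcl3, an NF-κB cofactor, went from 32.7 to 50.1 CPM beside 25.9 to 76.2 CPM (difference -0.92, -1.52 to -0.32), and Tmem252 from 67.1 to 126 CPM (0.90). The interval of Pim3 in artery-side cells held the reference value, while the Bcl3 ratio was smaller than in reference cells. Over all gated cells, venous side included, Bcl3 went from 26.8 to 61.7 CPM in cells with at least 5 UMIs and from 28.1 to 70.0 CPM in cells with none, so the gap was small there.

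A few genes moved in opposite senses in the sets. Cyp1a1, a target of the aryl hydrocarbon receptor, went from 10.9 to 26.7 CPM in artery-side cells and from 18.7 to 9.70 CPM in reference cells (difference 2.10, 1.16 to 3.05), and 2210408I21Rik from 22.7 to 45.1 CPM beside 44.2 to 21.6 CPM (1.96). Of 14 glucocorticoid targets, 5 fell in artery-side cells, against 1.4% of all genes tested, with a list median of -0.64 beside 0.18 in reference cells. Zbtb16 fell from 217 to 99.4 CPM, Fkbp5 from 31.0 to 14.2 CPM, Per1 from 25.2 to 11.7 CPM, Sult1a1 from 92.3 to 43.4 CPM and Fam107a from 42.8 to 15.0 CPM. Zbtb16, Fkbp5, Sult1a1 and Fam107a were also below the control in reference cells. Without barcodes carrying other-cell RNA 3 of the list fell. The globin and heme genes Hbb-bt (2.61), Hbb-bs (1.92) and Alas2 (1.83) were among the largest positive differences, and these followed the erythroid RNA of single barcodes.

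**Figure D4:**
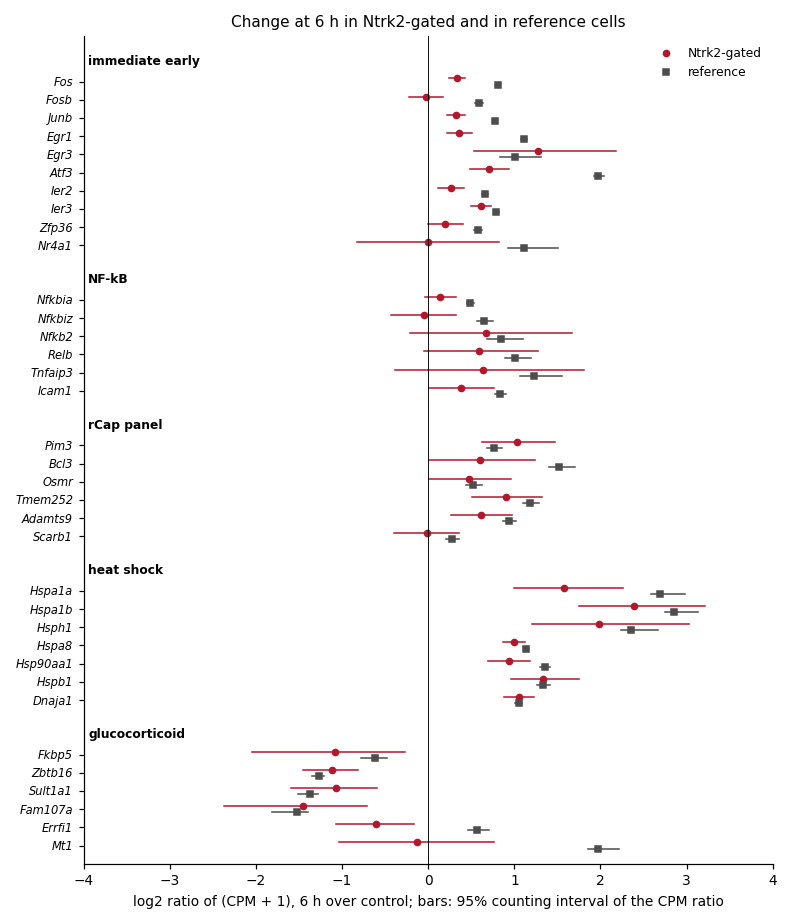
Log2 ratio of 6 h over control for genes of the response lists, in artery-side cells (red dots, labelled Ntrk2-gated) and reference cells (grey squares), with counting intervals. Heat shock genes lie to the right in both sets, while Atf3 and Egr1 lie further to the right in reference cells.

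At 30 h, 191 of 8689 genes (2.2%) were higher and 250 (2.88%) lower in artery-side cells than in the control library. Without the top barcode of each gene the counts were 208 and 189, and under median-of-ratios scaling 227 and 201. In reference cells 87 were higher and 84 lower, of which 52 and 46 were shared. The 30 h sums held 2099597 UMIs in artery-side and 13812672 in reference cells, so these call counts are not comparable between the sets either. Without barcodes carrying other-cell RNA, 194 genes were higher and 258 lower in artery-side cells, of which 137 and 153 were the same, and with venous-side UMIs allowed 109 were higher and 149 lower. The extremes belonged to single barcodes or to other-cell RNA. Stab2 (4.61), Dnase1l3 (4.55), Fcgr2b (3.94), Mrc1 (3.10) and Maf (2.73) held 85.1% to 100% of their 30 h UMIs in 1 barcode that Scrublet marked. Sftpc, from 4893 to 52.4 CPM (-6.52, and -0.23 without barcodes carrying other-cell RNA), Slc34a2 (-6.45), Sftpa1 (-6.24), Sftpd (-6.16) and Sftpb (-5.89) are alveolar type 2 genes. Hbb-bt (-6.50) and Hba-a2 (-6.23) are globins. Csmd1 (-6.07) was the remaining gene of the 8 largest falls. The control surfactant RNA lay mostly in the 2 control cells with type 2 RNA named above.

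Some of the remaining rises at 30 h were seen in reference cells as well and others less so. Cdk8, the Mediator kinase related to Cdk19, went from 186 to 1142 CPM in artery-side cells (2.61) and from 175 to 1166 CPM in reference cells (2.73), and Gm19951 from 3.36 to 28.1 CPM (2.74) beside 2.36. Cmss1, chosen after its values were seen, went from 492 to 2942 CPM beside 484 to 3134 CPM. Artery-side and reference cells moved alike in Cdk8 and Cmss1. Hist1h4h, a histone gene, went from 2.52 to 20.5 CPM (2.61) beside 0.73. Its control value in artery-side cells rested on 3 UMIs and lay below the 6.09 CPM of control reference cells. Mgp, a matrix inhibitor of BMP signals that was also chosen after its values were seen, went from 28.5 to 145 CPM (2.31) beside 118 to 214 CPM (0.85), so artery-side cells started far below the reference cells.

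Tubulin and artery genes rose in part. The tubulin list, which also holds Stmn1 and Stmn2, had 9 genes that passed. Tuba1a rose from 264 to 675 CPM (1.35) and Tuba1b from 143 to 332 CPM (1.22), against 2.2% of all genes tested. The median of this list was 0.86 beside 0.98 in reference cells. Cxcl12 rose by 1.31 beside 1.66 (difference -0.35, -0.45 to -0.24). Of the 25 artery genes that passed, Cxcl12 and Mgp rose and Hey2, Mecom, Ltbp4 and Fbln2 fell. Of all genes tested, 2.2% rose and 2.88% fell. The median of the artery list was 0.10 beside 0.20 in reference cells. Hey2 went from 15.1 to 6.19 CPM and Mecom from 97.4 to 37.6 CPM. Without barcodes carrying other-cell RNA only Hey2 and Fbln2 were called lower. The artery list therefore did not move as one.

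Of 10 NRF2 target genes, 4 fell, against 2.88% of all genes tested, with a median of -0.85 beside -0.43 in reference cells. Gclc, the catalytic subunit of glutathione synthesis, fell from 136 to 35.7 CPM, its partner Gclm from 244 to 79.1 CPM, Srxn1 from 32.7 to 6.67 CPM and Txnrd1 from 119 to 23.8 CPM. All 4 were also below the control in reference cells. Lpl fell from 686 to 203 CPM (-1.75) beside 954 to 239 CPM (-1.99). Of 16 BMP and TGF-β genes that passed, 1 rose and 2 fell, against 2.2% and 2.88% of all genes tested. Bmp2 rose from 2.52 to 20 CPM, with 69.0% of its 30 h UMIs in 1 cell. Bmp4 fell from 69.7 to 20 CPM, and Id2, a BMP target, from 122 to 57.6 CPM. Thsd7a, chosen after its values were seen, fell from 91.5 to 17.2 CPM (-2.35) beside -0.34 in reference cells. Of 14 clock genes 9 passed, and 2 rose and 1 fell, against 2.2% and 2.88% of all genes tested. The clock median was 0.45 beside 0.57 in reference cells, where Nr1d1 and Arntl were also called. Nr1d1 rose from 14.3 to 30.0 CPM, Dbp from 6.71 to 15.7 CPM, and Arntl fell from 42.0 to 15.7 CPM. The hour of collection and the melanoma cells cannot be told apart in a library of 1 time with no buffer partner.

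Among the largest positive differences between the sets at 30 h were those of Rnd3, a small GTPase, which went from 4.20 to 12.9 CPM beside 20.7 to 10.4 CPM (2.34, 0.99 to 3.69), Agfg2, from 2.52 to 15.2 CPM beside 15.1 to 14.6 CPM (2.25, 0.64 to 3.87), and Gm32004 (2.10). The log2 ratio of Sema5a at 30 h was -0.70 in artery-side cells beside -2.05 in reference cells (difference 1.34, 0.97 to 1.71). At 6 h it had moved alike in both, by -1.40 and -1.44. The immediate-early list was below the control in both sets at 30 h, with medians of -0.60 and -0.57.

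**Figure D5:**
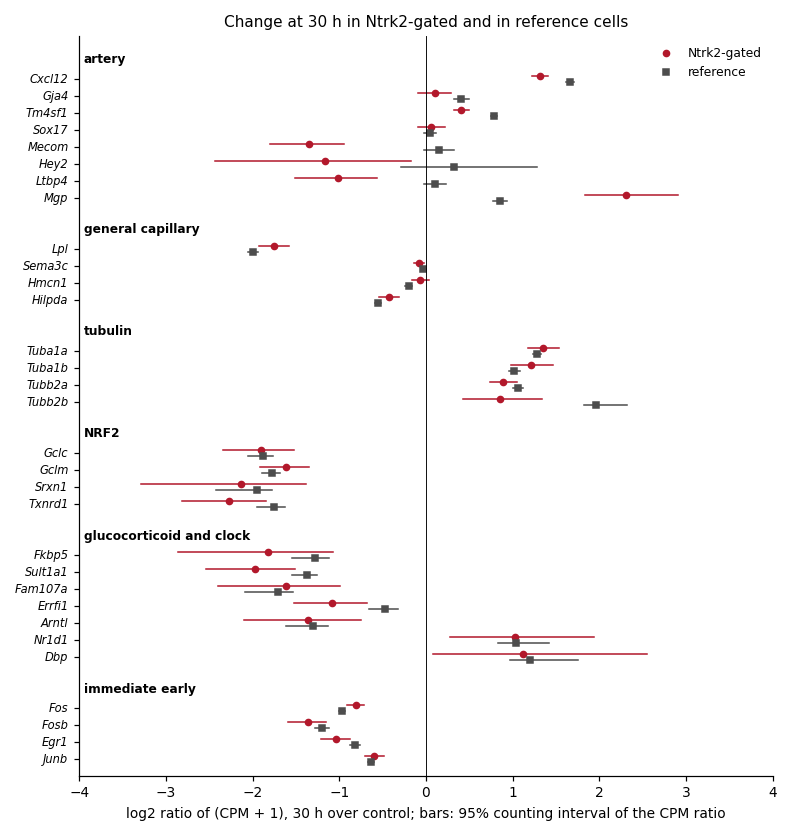
Log2 ratio of 30 h over control for genes of the response lists, in artery-side cells (red dots, labelled Ntrk2-gated) and reference cells (grey squares), with counting intervals. Gclc, Gclm, Srxn1 and Txnrd1 lie to the left of 0 and Cxcl12 and the tubulin genes Tuba1a and Tuba1b to the right.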

How the data were processed

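Unfiltered single-cell count matrices were deposited, 1 per library, whose values are raw UMI counts per gene and barcode. The authors made them with Cell Ranger (version 7.2.0 per the file headers) on mm10. The study's methods name the libraries as 10x 3′ v2, which the files do not settle. Cells of 2 or 3 mice were pooled per sample, and the labels and the study's methods differ on the number. Annotation was matched to 32158 of 32285 genes.

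Barcodes were gated by the limits given above, and counts were summed per library and gate and scaled to CPM. Log2 ratios used CPM + 1, with an exact conditional binomial interval of the raw ratio. Genes had a mean of at least 10 CPM, and a call needed a log2 ratio of at least 1 with an interval leaving out 0. Differences between sets of cells used a Wald counting interval. With 1 library per group no test was run and no p-value is given. Shares carry Clopper-Pearson and sums Poisson intervals at 95%. Scrublet (scanpy 1.11.5) marked doublets, which were kept. The interval and call calculations were checked on simulated counts. Python 3.11.15, numpy 2.4.6, pandas 2.3.3, scipy 1.17.1 and matplotlib 3.10.9 were used.

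Named genes were the 5 markers, the 12 highest and 12 lowest called against reference cells, the 8 largest rises and falls at each time, the 5 largest differences in each direction, and list genes; some of these are not reported here. The members and the lists were chosen with earlier results of these data known. Removal of barcodes with other-cell RNA, the venous limit and the top barcode were alternatives chosen after seeing the data.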

Additional observations from a re-analysis of the deposited data

Results flagged for a closer look

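Abcb1b, a drug efflux transporter, moved in opposite directions at 6 h: its log2 ratio was -1.52 in artery-side cells, from 20.98 to 6.68 CPM, and 1.81 in reference cells, from 9.67 to 36.3 CPM. Of its 25 control UMIs in artery-side cells, found in 6 cells, 80.0% lay in 1 cell. The difference was not tested. Droplets without cells, which entered no comparison, held Ntrk2 at 30.9 CPM and Slc6a6 at 81.3 CPM in the 30 h library, above the 13.5 and 51.5 CPM of the control droplets, and these differences were not tested either.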

How the results depend on the processing

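No paired analysis was possible because each group is 1 library and no test was run.

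The share of artery-side cells in the control, 6 h and 30 h libraries was 3.03%, 3.41% and 6.70% with at least 2 UMIs, 0.734%, 0.628% and 1.44% with at least 5, 0.565%, 0.391% and 1.04% after thinning to 3000 UMIs, and 3.39%, 3.09% and 7.08% without the venous limit. Higher genes against the reference numbered 13 with a reference of 0 to 2 UMIs, 10 at a minimum of 50 CPM, 36 with no minimum and 10 at a pseudocount of 10, and lower genes 10, 3, 36 and 7. Lower genes numbered 11 by cell-mean CPM (26 higher, a share of 70.3% higher against 57.5%) and 28 without the top barcode (37.8% higher). At 6 h the higher genes numbered 179 with at least 5 UMIs, 8 at 50 CPM, 170 with no minimum, 16 at a pseudocount of 10 and 31 without the venous limit, and the lower 194, 15, 242, 38 and 49. At 30 h the higher numbered 39, 300, 66 and 109 under the last 4 of these, and the lower 57, 542, 105 and 149. Median-of-ratios scaling gave 227 higher and 201 lower at 30 h (53% higher against 43.3%). Removal of barcodes with other-cell RNA moved the 6 h share of higher genes from 45.3% to 55.4%. The cause was not tested.

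Directions reversed for single genes, some of them at the floor of counts. Without barcodes carrying other-cell RNA, the values of Csmd1, Cadm2, Abca8a and Matn2 rest on almost no UMIs, so their signs carry no weight. Without barcodes carrying other-cell RNA, Reln was 0.076 and Mmrn1 0.38 against the reference; at 6 h Csmd1 0.96, Cadm2 0.96, Abca8a 0.96 and Matn2 1.53, with differences of 1.16 for Csmd1 and 1.42 for Cadm2; and at 30 h Fcgr2b -0.41, Mrc1 -0.56, Csmd1 0.68 and Sftpb 0.081, with differences of 1.30 for Csmd1 and 0.29 for Sftpc. With at least 5 UMIs, Lama1 was -1.31 and Spp1 -1.03 at 6 h, with differences of -2.75 for Hbb-bt, -2.80 for Hbb-bs and -0.97 for Alas2, and at 30 h differences of 0.20 for Sftpc and 0.65 for Sftpd. Without Scrublet-marked barcodes at 30 h, Fcgr2b was -0.32 and Mrc1 -0.45, with differences of -0.60 for Mrc1 and -0.53 for Maf. In cells of 6000 to 12000 UMIs at 30 h, Fcgr2b was -0.45, Mrc1 -1.10, Sftpd 0.055 and Sftpb 0.26, with differences of -1.54 for Mrc1, -0.07 for Maf, 0.17 for Sftpc and 0.92 for Sftpd. Without the top barcode, the difference was -0.44 for Hbb-bs at 6 h and -0.18 for Mrc1 at 30 h.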
